A study of Mus musculus with 4 samples.

Results

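The 33 genes described here encode glucose transporters, the enzymes of glycolysis, the enzymes and carriers of lactate, the kinases that gate pyruvate entry into mitochondria, and the enzymes of glycogen storage and breakdown. They were matched by gene symbol and read from the 32287 gene rows of both matrices. The list was made with earlier results of these data known. The 33 symbols matched 34 rows, because Aldoa is listed under 2 identifiers. The second Aldoa row had 3 injured and 2 uninjured UMIs and was added to the first. Each value is a count of UMIs (unique molecular identifiers, 1 per captured transcript) summed over the cells of a class, given as CPM, UMIs per 1000000 gene UMIs of that class.

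Both groups of mice were Cx30-tdTomato animals, in which a tamoxifen-inducible Cre driven by Cx30 (a connexin gene of astrocytes) had switched on the red reporter tdTomato in labelled cells. Both received the same pool of adeno-associated viruses with candidate enhancers by the vein, so the virus was shared by the injured and the uninjured group. The injured group was sampled 3 days after spinal cord injury, and the uninjured group had no injury. The study describes pooled tissue segments of 5 mm from 1 to 2 animals of each sex, from which tdTomato-positive cells were sorted for 1 gene expression library per condition. The uninjured library goes against this, with 2 cells scored female and 2770 scored male, beside 250 and 315 in the injured library. Sex and injury can therefore not be told apart in the ratios of injured over uninjured, except where male-scored cells are given alone. The reporter marks any cell in which Cx30 drove Cre, so it is not limited to astrocytes.

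Glycolysis splits glucose into pyruvate, which is either turned into lactate by lactate dehydrogenase or passed to the mitochondrial pyruvate dehydrogenase complex. Several steps have isoenzymes encoded by separate genes, and cell types differ in the ones they use. Astrocytes are known for their aldolase C (Aldoc), their glycogen stores and their release of lactate through monocarboxylate transporters.

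After filtering, 879 injured and 4159 uninjured cells were analysed, with medians of 6816 and 3343 gene UMIs per cell. Marker genes named 380 injured and 3641 uninjured cells astrocyte-like, with medians of 3817 and 3355 UMIs. All 9 astrocyte markers were found in both groups. Different clusters held most of these cells. Of the injured cells, 153 lay in cluster 3 and 177 in cluster 4. Of the uninjured cells, 979 lay in cluster 5, 968 in cluster 8, 743 in cluster 11, 497 in cluster 10 and 434 in cluster 13. Microglia-like cells numbered 129 and 32, ependymal-like cells 135 and 36, OPC-like cells (oligodendrocyte precursors) 53 and 16, endothelial-like cells 68 and 26, and fibroblast-like cells 60 and 97. The libraries shared 7 cell barcodes. Astrocyte-like cells scored female by Xist numbered 74 in the injured and 2 in the uninjured library, against 126 and 2505 scored male by Y-linked genes. Since each condition was 1 library of pooled animals, no test between conditions was possible, and the 95% intervals below cover counting error only.

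Astrocyte-like cells devoted the highest share of their UMIs to these genes. The summed members took 0.850% (0.838 to 0.863%) of injured and 0.940% (0.935 to 0.945%) of uninjured astrocyte-like UMIs. In the other 5 classes the share lay between 0.360% and 0.511% in the injured library and between 0.208% and 0.530% in the uninjured library. The injured astrocyte-like share was 1.74 times the microglia-like one (1.69 to 1.78), 1.66 times the endothelial-like one (1.61 to 1.72) and 2.36 times the fibroblast-like one (2.27 to 2.46). Aldoc carried much of the gap: without it the ratio to microglia-like cells was 1.37 (1.33 to 1.40) and the ratio to endothelial-like cells 1.31 (1.26 to 1.35).

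**Figure D1:**
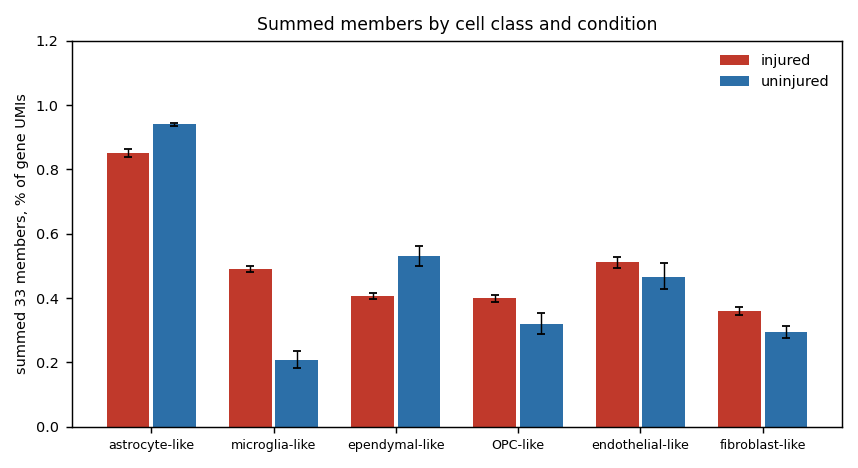
Percent of all gene UMIs taken by the 33 members together (vertical axis) in the 6 cell classes, with injured bars in red and uninjured bars in blue and exact 95% counting intervals. The astrocyte-like bars, at 0.850% and 0.940%, stand above all others, and the microglia-like pair has the largest gap between conditions.

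The gap between classes depended on the step of the pathway. Upper glycolysis, from hexokinase to triose phosphate isomerase, was 3.23 times higher in injured astrocyte-like than microglia-like cells (3.08 to 3.39). Glycogen genes were 3.73 times higher (3.34 to 4.17). Lower glycolysis, from Gapdh to Pkm, was level at 2792 CPM in both classes (ratio 1.00, 0.964 to 1.04). Of the 32 members that reached a mean of 10 CPM over those 2 groups, 15 were past 2-fold higher in astrocyte-like cells, beside 29.9% of all genes that reached it. 3 were past 2-fold lower, beside 19.8% of all genes. Those 3 were Hk2, Slc16a3 and Pdk1. The median log2 ratio was 0.78 for the members and 0.24 for all genes.

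The classes differed in some isoenzymes and shared others. Aldoc, which encodes the aldolase of astrocytes, had 1830 CPM in injured astrocyte-like cells, 347 CPM in OPC-like, 335 CPM in ependymal-like, 12.2 CPM in microglia-like and 2.68 CPM in endothelial-like cells. Among the phosphofructokinases, which commit sugar to glycolysis, Pfkm and Pfkp had 229 and 244 CPM in injured astrocyte-like cells against 3.17 and 21.1 CPM in microglia-like cells. The third subunit gene, Pfkl, was near level at 47.7 and 54.4 CPM in the same order. Hexokinase, the entry enzyme, was split the other way: Hk2 had 130 CPM in injured microglia-like, 70.8 CPM in fibroblast-like and 5.61 CPM in astrocyte-like cells. Hk1 had 19.0 CPM in the microglia-like and 114 CPM in the astrocyte-like cells. Hk1 also held 91.3% of hexokinase UMIs in injured ependymal-like and 90.9% in OPC-like cells, as it held 95.3% in astrocyte-like cells. Slc16a3, a lactate exporter gene of glycolytic cells, had 56.0 CPM in injured microglia-like cells and no UMI in 380 injured astrocyte-like cells. The upper 95% Poisson limit of that 0 was 1.72 CPM. Endothelial-like cells stood apart at the borders of the cell. Their Slc2a1, the glucose transporter of the blood-brain barrier, had 1655 CPM after injury and 1490 CPM without it, against 109 and 147 CPM in astrocyte-like cells. They also had the highest Slc16a1 level (the monocarboxylate transporter MCT1), at 220 CPM injured and 179 CPM uninjured, and the highest Gbe1 level (glycogen branching enzyme), at 136 and 226 CPM.

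**Figure D2:**
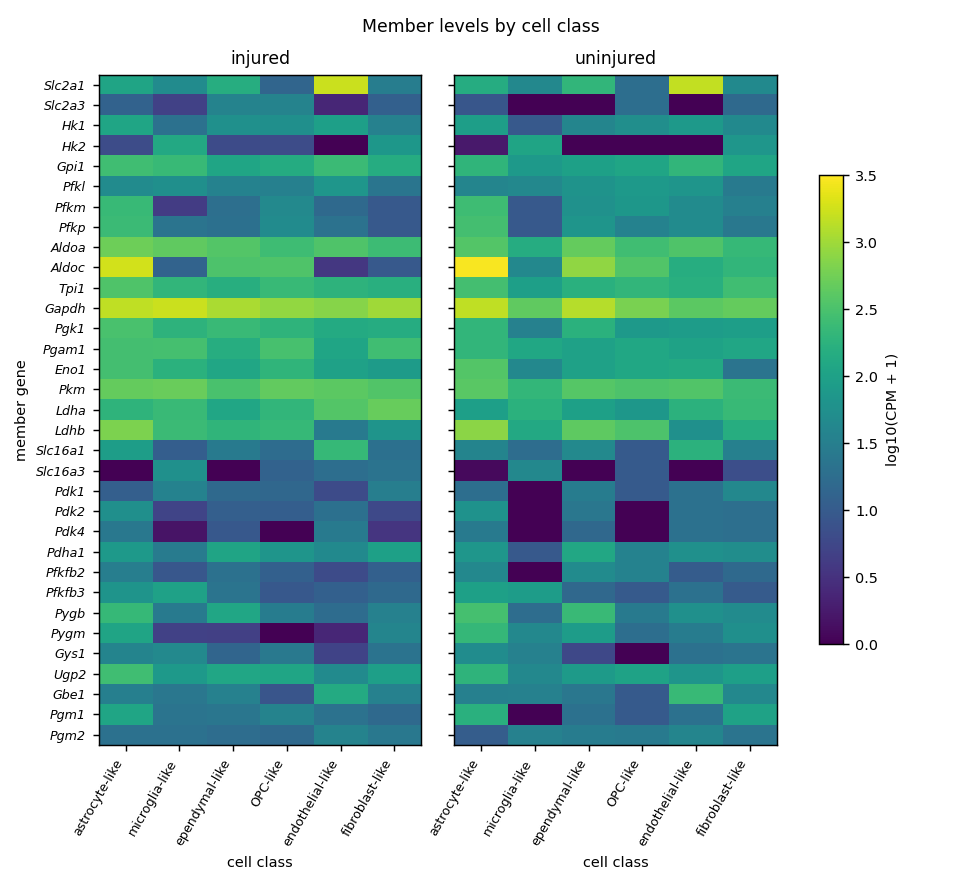
Levels of each member (rows) in the 6 cell classes (columns) of the injured and the uninjured library, coloured by log10(CPM + 1). Aldoc, Pfkm, Pfkp and Ldhb are brightest in the astrocyte-like columns, Slc2a1 in the endothelial-like columns, and Hk2 in the microglia-like and fibroblast-like columns.

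The same count was made for the other classes of the injured library. Against ependymal-like cells, 16 of 31 members were past 2-fold higher in astrocyte-like cells (16.8% of all genes) and 1 lower (18.7%). Against OPC-like cells, 17 of 31 were higher (13.4%) and 1 lower (22.1%). In both, the lower gene was Slc2a3, a glucose transporter gene, with 11.7 CPM in astrocyte-like, 35.4 CPM in ependymal-like and 35.3 CPM in OPC-like cells. Against endothelial-like cells, 15 of 29 were higher (24.2%) and 3 lower (20.8%), the 3 being Slc2a1, Slc16a1 and Gbe1. Against fibroblast-like cells, 20 of 33 were higher (19.9%) and 4 lower (20.3%), the 4 being Hk2, Slc16a3, Pdk1 and Ldha. RNA shed by broken cells can add astrocyte transcripts to other droplets. The 9 astrocyte markers summed to between 0.333% and 13.9% of their astrocyte-like level in the other injured classes and to between 1.41% and 29.9% in the uninjured ones. Its part in the levels of Aldoc, Pygm or Ldhb in those classes was not tested.

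Between conditions, the summed set in astrocyte-like cells was slightly lower after injury. Its ratio of injured over uninjured was 0.904 (0.890 to 0.919). That value turned on Aldoc, the most abundant member: the other 32 genes together had 0.667% and 0.645% of UMIs, a ratio of 1.03 (1.02 to 1.05). Of the 30 members that reached a mean of 10 CPM, 1 was past 2-fold higher, beside 11.4% of all genes, and 0 were past 2-fold lower, beside 6.04% of all genes. With 1 library per condition, these calls rest on fold alone, with no test by any tool. The median log2 ratio was -0.09 for the members and 0.02 for all 9428 genes. Single genes differed in direction. The counting interval lay above 1 for 11 of the 30 members, beside 32.8% of all genes, and below 1 for 13, beside 29.7% of all genes. Intervals this narrow lie off 1 for many genes at this depth, so these counts are given as a description.

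**Figure D3:**
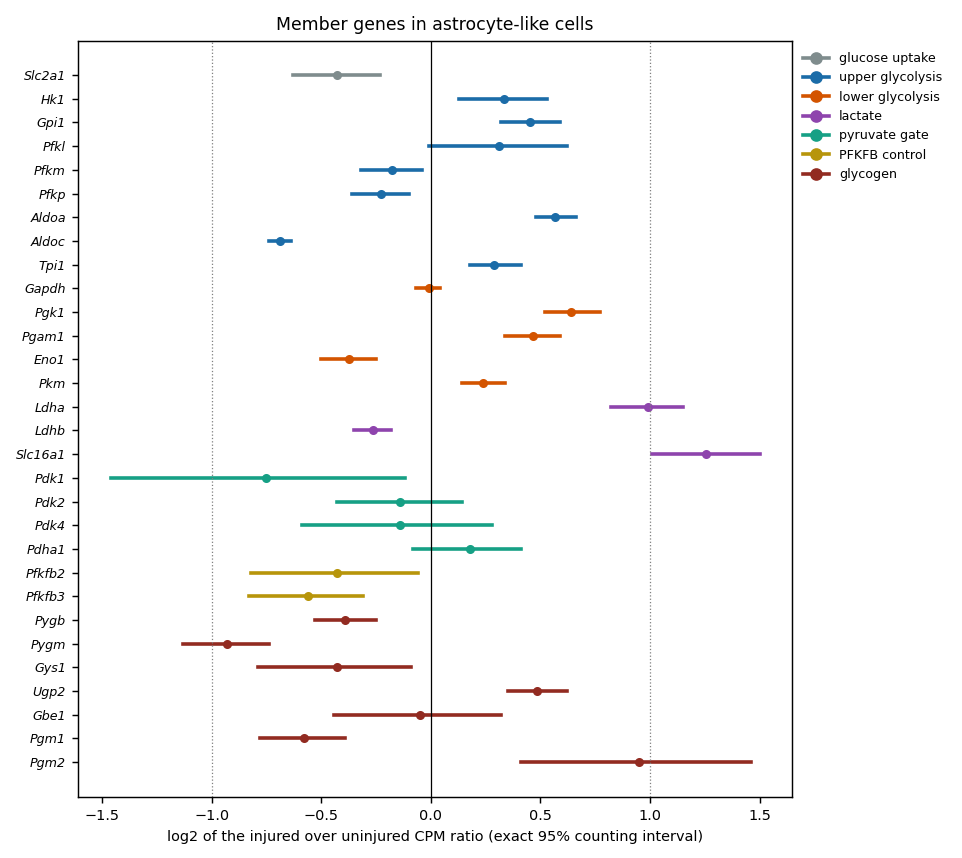
Log2 of the injured over uninjured CPM ratio in astrocyte-like cells (horizontal axis) for the 30 members that reached a mean of 10 CPM, coloured by pathway step, with exact 95% counting intervals and dotted lines at 2-fold. Slc16a1, Ldha and Pgm2 lie farthest to the right, and Pygm, Pdk1 and Aldoc farthest to the left.

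At glucose uptake, Slc2a1 was lower after injury, with 109 CPM (233 UMIs) injured and 147 CPM (1993 UMIs) uninjured, a ratio of 0.743 (0.646 to 0.852). Slc2a3 was sparse, at 11.7 and 7.58 CPM (ratio 1.54, 0.955 to 2.41). In upper glycolysis, genes of the same pathway went opposite ways. Hk1 had 114 and 90.4 CPM (ratio 1.26, 1.09 to 1.44), and Gpi1, which interconverts the hexose phosphates, 267 and 195 CPM (log2 ratio 0.45, 0.32 to 0.59). Aldoa, the broadly expressed aldolase, had 535 and 360 CPM (1.48, 1.39 to 1.58), while Aldoc had 1830 and 2950 CPM (0.620, 0.600 to 0.641). Tpi1, the triose phosphate isomerase gene, had 342 and 280 CPM (1.22, 1.13 to 1.33). Pfkm and Pfkp were lower at ratios of 0.884 (0.803 to 0.972) and 0.854 (0.778 to 0.936). Hk2 had 12 injured and 10 uninjured UMIs, which is 5.61 and 0.736 CPM (ratio 7.63, 3.02 to 19.7), below the filter.

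In lower glycolysis, Gapdh was level at 1448 and 1459 CPM (ratio 0.993, 0.956 to 1.03). Pgk1, the first ATP-forming enzyme of the pathway and a gene on the X chromosome, had 315 and 202 CPM (1.56, 1.44 to 1.70). Pgam1, the phosphoglycerate mutase gene, had 280 and 203 CPM (1.38, 1.26 to 1.51). The next enzyme gene, Eno1, went the other way, with 283 and 366 CPM (0.772, 0.709 to 0.841). Pkm, the pyruvate kinase gene, had 466 and 395 CPM (1.18, 1.10 to 1.26). Reads of Eno1 could be shared with its near-identical copy Eno1b, which had 5.61 and 5.81 CPM in these cells.

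Among the members at 10 CPM or more, the highest ratios were those of the lactate genes Slc16a1 and Ldha. Slc16a1 had 88.8 CPM (190 UMIs) injured and 37.1 CPM (505 UMIs) uninjured, a ratio of 2.39 (2.01 to 2.83). Ldha, the lactate dehydrogenase subunit that is most abundant in glycolytic tissues, had 188 and 94.9 CPM (1.99, 1.77 to 2.22), just inside 2-fold. On GRCm38 (GENCODE M21), Slc16a1 is at chr3:104638668-104658462 and Ldha at chr7:46841475-46855627, both protein-coding and on the plus strand. Ldhb, the subunit of oxidative tissues, had 645 and 775 CPM (0.832, 0.786 to 0.880). The step as a whole was level at a ratio of 1.02 (0.969 to 1.07), since Ldhb supplied most of its UMIs. The members nearest the 2-fold line on either side were thus Slc16a1 and Ldha. At the pyruvate gate, the kinases that switch off pyruvate dehydrogenase were lower or level: Pdk1 had 10.3 and 17.4 CPM (22 and 236 UMIs, 0.593, 0.364 to 0.919). Pdk2 and Pdk4 had ratios of 0.907 (0.740 to 1.10) and 0.906 (0.664 to 1.21), and Pdha1, a subunit of the dehydrogenase itself, 1.13 (0.947 to 1.33). The PFKFB enzymes set the level of the activator of phosphofructokinase. Both were lower, Pfkfb3 at 64.5 and 95.3 CPM (0.677, 0.564 to 0.808) and Pfkfb2 at 30.9 and 41.6 CPM (0.743, 0.566 to 0.960).

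Among the glycogen genes, both phosphorylases, which release sugar from glycogen, were lower after injury. Pygm had 111 CPM (237 UMIs) and 211 CPM (2872 UMIs), a ratio of 0.525 (0.458 to 0.599). Pygb had 222 and 292 CPM (0.762, 0.691 to 0.838). The synthase gene Gys1 was lower too, at 36.5 and 49.1 CPM (0.743, 0.580 to 0.941). Ugp2, which makes the UDP-glucose used to build glycogen and sugar chains, was higher at 262 and 187 CPM (1.40, 1.28 to 1.54). The phosphoglucomutase genes moved apart: Pgm1 had 113 and 168 CPM (0.669, 0.583 to 0.764), and Pgm2 19.2 and 9.93 CPM (1.93, 1.33 to 2.76). Gbe1 was near level at 31.3 and 32.4 CPM. Together the 7 glycogen genes had 794 and 949 CPM, a ratio of 0.837 (0.795 to 0.880).

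Paired genes can also be read as shares of their family's UMIs. The intervals of the 2 conditions, which cover counting error only, lay apart in 7 of 10 families. No such share was computed for families outside the set. Ldha made up 22.6% (20.7 to 24.6%) of lactate dehydrogenase UMIs in injured and 10.9% (10.3 to 11.5%) in uninjured astrocyte-like cells. Aldoa made up 22.6% (21.5 to 23.8%) of Aldoa and Aldoc UMIs in injured and 10.9% (10.6 to 11.2%) in uninjured cells. Pgm2 made up 14.5% of phosphoglucomutase UMIs in injured and 5.57% in uninjured cells. Pygm made up 33.3% and 42.0% of glycogen phosphorylase UMIs in the same order. Pfkl made up 9.16% and 6.59% of phosphofructokinase UMIs, in the order injured and uninjured. The pyruvate dehydrogenase kinases, the PFKFB genes and the monocarboxylate transporters had overlapping intervals. For comparison, Ldha made up 49.8% of the family in injured microglia-like and 88.3% in injured fibroblast-like cells, so in these injured astrocyte-like cells Ldhb was still the majority at 77.4%. UMIs were read from 3′ ends and do not scale with transcript length, but genes can differ in capture, so a share of UMIs is not a share of enzyme.

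**Figure D4:**
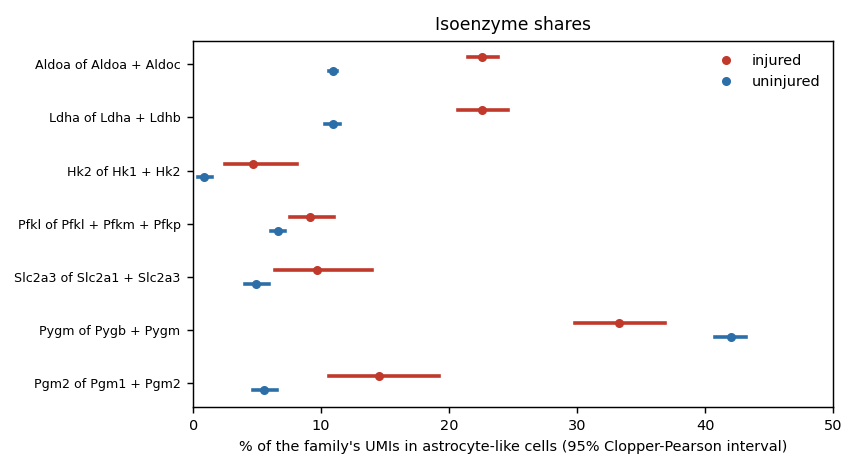
Percent of an isoenzyme family's UMIs held by 1 gene in astrocyte-like cells (horizontal axis), injured in red and uninjured in blue, with 95% Clopper-Pearson intervals, for the 7 families whose intervals lie apart. Aldoa and Ldha sit at 22.6% injured and 10.9% uninjured. Of the 7 genes plotted Pygm alone has a lower share in the injured library, and its partner Pygb thus has a higher one. Which gene of a family was plotted was a choice.

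The promoters of the genes that moved apart are shown because the paired isoenzymes differ in sequence at their starts as well as in level. The letters ACGTG and GCGTG are core letters of the sites of hypoxia-inducible factors, and TGANTCA is that of AP-1. All were searched on both strands in the 250 bases before each RefSeq start (GRCm38.p6), and CACGTG holds ACGTG on both strands and so counts as 2 matches. Promoters were found for 32 of the 33 members, in 49 windows. ACGTG was in 22 of the 49 windows (44.9%) and in 16.6% of all 32851 RefSeq promoter windows. GCGTG was in 51.0% and 28.2%, and TGANTCA in 2.04% and 6.75%. Windows of the same gene can overlap, as those of Eno1 do, so a site can be counted more than once. The base composition of member and other windows was not compared. A match is a description of letters, and none was tested for binding. Below, capitals mark every match, each run is 5′ to 3′ on the gene's strand, and bases annotated as exon of the gene were left out.

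Slc16a1, chr3:104638414-104638663, plus strand, 4 matches: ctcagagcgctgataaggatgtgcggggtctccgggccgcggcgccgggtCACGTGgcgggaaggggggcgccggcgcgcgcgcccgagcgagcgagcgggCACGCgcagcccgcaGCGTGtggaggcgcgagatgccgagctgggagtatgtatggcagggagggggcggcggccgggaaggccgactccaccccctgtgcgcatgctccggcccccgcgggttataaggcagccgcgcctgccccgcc
Ldha, chr7:46845554-46845803, plus strand, 5 matches: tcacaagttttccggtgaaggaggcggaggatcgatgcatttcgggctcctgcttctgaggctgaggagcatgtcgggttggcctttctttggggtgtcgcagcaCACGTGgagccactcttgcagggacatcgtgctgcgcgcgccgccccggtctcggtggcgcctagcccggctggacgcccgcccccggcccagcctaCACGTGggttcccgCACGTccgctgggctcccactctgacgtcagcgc
Ldhb, chr6:142507958-142508207, minus strand, 1 match: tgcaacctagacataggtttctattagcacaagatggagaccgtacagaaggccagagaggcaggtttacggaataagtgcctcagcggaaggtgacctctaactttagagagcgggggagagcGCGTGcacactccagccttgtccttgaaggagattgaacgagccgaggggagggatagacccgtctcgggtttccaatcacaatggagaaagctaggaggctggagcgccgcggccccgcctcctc
Aldoa, chr7:126799255-126799504, minus strand, 1 match of ACGTG and 1 of TGANTCA: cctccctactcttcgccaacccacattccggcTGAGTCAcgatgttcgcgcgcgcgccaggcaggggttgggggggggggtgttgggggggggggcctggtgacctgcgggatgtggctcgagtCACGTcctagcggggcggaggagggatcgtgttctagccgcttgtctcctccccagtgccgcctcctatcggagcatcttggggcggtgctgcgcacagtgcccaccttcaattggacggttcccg
Aldoc, chr11:78322823-78322967, plus strand, 0 matches in the bases shown: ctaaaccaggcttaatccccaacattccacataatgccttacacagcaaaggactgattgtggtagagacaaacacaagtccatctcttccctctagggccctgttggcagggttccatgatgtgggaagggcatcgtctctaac

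Aldoc is given over 145 bases and the others over 250. The full Aldoc window, with the exon bases, holds 1 match of GCGTG, as does its second window. Ldha has a second window with 1 match, the same number as the Ldhb window, so the 5 matches belong to the start shown and not to the gene as a whole. Of the other Aldoa windows 1 has no match and 1 has a match of ACGTG alone.

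The injured astrocyte-like cells were not alike in these genes. Members were left out of clustering, and still cluster 3 gave 1.23% of its UMIs to them, against 0.756% in cluster 4. Tgm1, Lcn2, Vgf and Gfap were among the 10 leading genes of both clusters. Tagln and Cryab were among those of cluster 3 only, and Gm49313 and Dcaf17 among those of cluster 4 only. Both clusters were defined by other genes of the same cells, so the values are a description with no test. In cluster 3, Ldha had 368 CPM, Aldoa 996, Pgk1 569, Pgam1 552, Tpi1 596 and Gpi1 414 CPM. In cluster 4 the same genes had 137, 409, 249, 205, 266 and 228 CPM. Set against all uninjured astrocyte-like cells, cluster 3 had 7 of 30 members past 2-fold higher, those 6 and Slc16a1, but 23.3% of all genes were past it too. In the same cells 5 members were past 2-fold lower, beside 33.4% of all genes. These were Slc2a1, Pfkfb2, Pfkfb3, Pygm and Gbe1, at 63.2, 9.58, 32.6, 78.5 and 11.5 CPM. Neither count exceeded the share of all genes. The other glycogen genes did not move together: Ugp2 had 320 CPM in cluster 3 and 255 CPM in cluster 4, and Pgm1 121 and 113 CPM. Pygb, Gys1 and Pgm2 were lower in cluster 3, at 188, 24.9 and 11.5 CPM against 237, 42.5 and 23.6 CPM in cluster 4.

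Cluster 4 was closer to the uninjured cells. It had 3 of 31 members past 2-fold higher, namely Slc16a1, Pgm2 and Slc2a3, beside 9.06% of all genes, and 0 past 2-fold lower, beside 3.99%. Slc16a1 was the gene that was high in both clusters, at 78.5 CPM in cluster 3 and 97.7 CPM in cluster 4. Eno1 and Ldhb were above their uninjured level in cluster 3, with 456 and 1011 CPM, and below it in cluster 4, with 242 and 551 CPM. Cluster 3 was shallower, with a median of 2814 UMIs against 7132, and held 2 cells scored female and 26 scored male, against 64 and 84 in cluster 4. Their part in these differences was not tested.

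**Figure D5:**
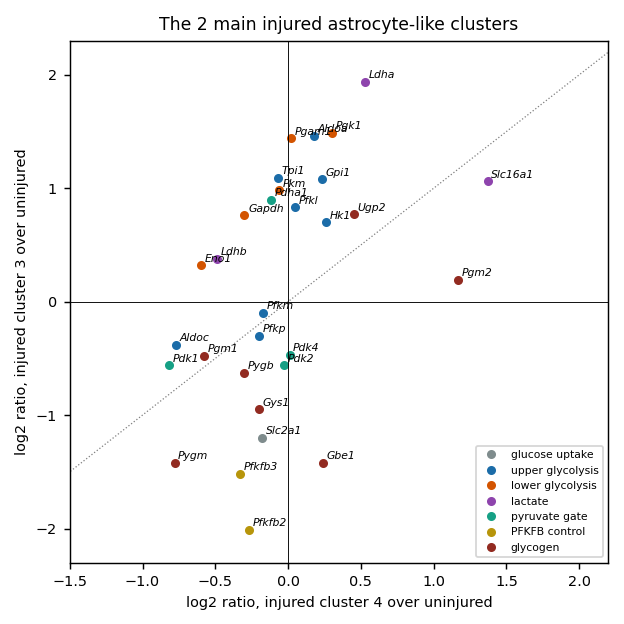
Log2 ratios to uninjured astrocyte-like cells of the injured cells of cluster 4 (horizontal axis) and cluster 3 (vertical axis), 1 point per member, coloured by pathway step, with the dotted line at equal ratios. Ldha, Pgk1, Aldoa and Pgam1 lie high above the line, Pfkfb2, Pfkfb3, Pygm and Gbe1 below it, and Slc16a1 to the right.

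Cells also differed one by one. With each cell thinned to 1000 gene UMIs, injured astrocyte-like cells had a median of 8 member UMIs (quartiles 4 and 12.5), after 29 shallower cells were left out. Uninjured ones had a median of 9 (quartiles 6 and 12), with 69 left out. The variance was 4.50 times the mean in injured and 2.72 times in uninjured cells. The medians were 12 in cluster 3 and 6 in cluster 4, with 15 and 6 cells left out. Without thinning, the median share of members per cell was 0.771% injured and 0.869% uninjured. Of the 979 uninjured cells of cluster 5, which had a median of 2009 UMIs and 9.80% mitochondrial UMIs, members took 0.556%, below the 0.925% to 1.19% of the other uninjured clusters.

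Because the uninjured library was nearly all male-scored, male and female cells were compared within the injured astrocyte-like class. The members summed to 7386 CPM in 74 female-scored and 8152 CPM in 126 male-scored cells (ratio 0.906, 0.874 to 0.939). Pgk1 and Pdha1, both X-linked, had 275 and 283 CPM and 61.0 and 71.9 CPM, with intervals of the ratio that include 1. Pfkp had 171 CPM in female-scored and 311 CPM in male-scored cells (0.549, 0.438 to 0.684), and Tpi1 230 and 353 CPM (0.652, 0.535 to 0.792). Intervals also lay below 1 for Pgm1 (0.657, 0.474 to 0.902), Pygm (0.719, 0.521 to 0.984) and Aldoc (0.851, 0.787 to 0.919). The same held for Pygb (0.795, 0.637 to 0.988) and Ugp2 (0.808, 0.657 to 0.991). They lay above 1 for Pdk4 (1.98, 1.03 to 3.87) and Pfkfb3 (1.49, 1.01 to 2.17). With male-scored cells alone, Slc16a1 and Ldha kept log2 ratios of 1.29 and 0.87, and Pfkp turned from lower to 0.11. Sex went along with cluster: cluster 3 held 2 female-scored and 26 male-scored injured cells, and cluster 4 held 64 and 84. All injured cells of these clusters, scored or not, numbered 153 and 177. Tpi1 had 596 CPM in cluster 3 and 266 CPM in cluster 4, and Pfkp 232 and 249 CPM. The part of cluster in the sex and male-only ratios was not tested.

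Microglia-like cells showed the widest difference between conditions in the summed set. Members took 0.490% of injured and 0.208% (0.182 to 0.235%) of uninjured microglia-like UMIs, a ratio of 2.36 (2.08 to 2.69). The uninjured value rests on 32 cells with 244 member UMIs. Gapdh had 1648 and 443 CPM (3.72, 2.83 to 5.00), Aldoa 448 and 145 CPM (3.09, 1.92 to 5.34), and Pkm 502 and 204 CPM (2.46, 1.64 to 3.86). Eno1 had 170 and 42.6 CPM (3.99, 1.69 to 12.4) and Pgk1 181 and 34.0 CPM (5.31, 2.06 to 19.6), the latter from 4 uninjured UMIs. Lower glycolysis as a step had a ratio of 3.31 (2.72 to 4.08). The glycogen genes had a ratio of 1.04 from 24 uninjured UMIs, with a wide interval that includes 1 (0.691 to 1.65). Slc16a3, Hk2 and Ldha had intervals that include 1, at 56.0 and 42.6, 130 and 111, and 238 and 170 CPM. In all, 13 of 28 members were past 2-fold higher, beside 13.8% of all genes, with 5 of the 13 at 0 or 1 uninjured UMI. 2 were past 2-fold lower, Aldoc and Pygm, beside 22.5% of all genes. The median log2 ratio was 0.86 for the members and -0.19 for all genes. The 9 astrocyte markers were lower in the same cells, at 44.4 CPM injured and 213 CPM uninjured. The 7 monocyte and macrophage markers summed to 758 CPM in injured and 996 CPM in uninjured microglia-like cells, with Ccr2 and Ly6c2 at 0 in the uninjured ones. The 6 neutrophil markers were higher after injury, at 556 CPM (1051 UMIs) and 213 CPM (25 UMIs), with S100a8 and S100a9 at 0 in the uninjured cells. Median depth was 13386 and 3064 UMIs. The part of these cells and of depth was not tested.

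Lower glycolysis was higher after injury in fibroblast-like cells as well. The step had 1843 CPM injured and 942 CPM uninjured (ratio 1.96, 1.73 to 2.22), and the summed members had a ratio of 1.22 (1.14 to 1.32). Without Gapdh the summed ratio was 1.05, with an interval that includes 1 (0.970 to 1.14). Of 33 members 5 were past 2-fold higher, beside 12.5% of all genes: Gapdh (1001 and 469 CPM), Pgam1 (264 and 117), Eno1 (81.8 and 20.9), Ldha (489 and 224) and Slc16a3 (20.8 and 5.98, from 2 uninjured UMIs). Ldha was most abundant here of all classes. The 7 past 2-fold lower were Pfkm, Pfkp, Aldoc, Ldhb, Pdk2, Pdk4 and Pgm1, beside 12.8% of all genes, and the median log2 ratios were -0.34 for the members and -0.01 for all genes. Astrocyte markers were lower as well, at 7.82% of the astrocyte-like level in injured and 14.8% in uninjured fibroblast-like cells. The class's own 7 fibroblast markers summed to 14382 CPM injured and 28090 CPM uninjured, and the 8 mural markers to 2226 and 1758 CPM. Mitochondrially encoded genes had 22845 and 43777 CPM, and the median depth was 8590 and 3073 UMIs. Their part was not tested.

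Ependymal-like cells, which line the central canal, gave a lower share of their UMIs to members after injury. The share was 0.405% injured and 0.530% uninjured, a sum ratio of 0.765 (0.718 to 0.815). Here 8 of 30 members were past 2-fold lower, beside 13.2% of all genes, and 1 was higher, beside 8.94%. The median log2 ratios were -0.33 for the members and -0.07 for all genes. The higher one was Slc2a3, with 60 UMIs (35.4 CPM) against 0. The lower ones were Pfkm, Pfkp, Aldoc, Ldhb, Pdk2, Pfkfb2, Pygb and Pygm, of which Aldoc had 335 and 824 CPM and Ldhb 194 and 428 CPM. The astrocyte markers were lower too, at 1856 CPM injured and 4508 CPM uninjured, as were the 8 ependymal markers at 2353 and 4446 CPM. Mitochondrially encoded genes had 51251 and 98594 CPM, with 6 of 13 past 2-fold lower, and the median depth was 10862 and 5002 UMIs. Their part was not tested. OPC-like cells had a sum ratio of 1.25 (1.13 to 1.40), with Ldha at 203 and 69.2 CPM (2.93, 1.46 to 6.88). Endothelial-like cells had a sum ratio of 1.10 (0.997 to 1.21). Their Ldha had 370 and 179 CPM (2.07, 1.30 to 3.49), while their Slc2a1 interval included 1 (1.11, 0.940 to 1.32). Ldha was thus higher in the injured library in all 6 classes, with an interval above 1 in 4 of them, the exceptions being microglia-like (1.40, 0.896 to 2.31) and ependymal-like cells (1.23, 0.773 to 2.05).

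Neighbouring pathways in astrocyte-like cells were read from lists of genes by role. In the same comparison 11.4% of all genes were past 2-fold higher and 6.04% past 2-fold lower, with a median log2 ratio of 0.02. Of 6 pentose phosphate genes at 10 CPM or more, 3 were past 2-fold higher: Taldo1 (161 and 63.1 CPM), Pgd (39.3 and 17.5 CPM) and Pgls (87.0 and 41.4 CPM). The pathway makes NADPH from glucose 6-phosphate, though not by every one of its enzymes. Their list had a median log2 ratio of 0.77. None of 20 TCA cycle genes and none of 22 nuclear oxidative phosphorylation genes was past 2-fold, with medians of 0.06 and 0.36. Of 14 other glycogen genes, 1 was higher, Gyg (glycogenin, the primer of glycogen, 58.0 and 24.7 CPM). Epm2a (laforin, 10.3 and 34.1 CPM) and Ppp1r3d (6.08 and 19.0 CPM) were lower. Of 12 other glycolysis and pyruvate genes, 1 was lower, Pfkfb4 (38.3 and 79.0 CPM), the third PFKFB gene to be lower. Of 13 other hypoxia genes, Mif was past 2-fold higher (342 and 143 CPM) and Vegfa past 2-fold lower (57.0 and 294 CPM), with a median of -0.15. Of 6 regulators of metabolism, Txnip, which restrains glucose uptake, was higher (16.8 and 4.49 CPM) and Ppargc1a, a driver of mitochondrial genes, lower (99.1 and 213 CPM), while Hif1a had 234 and 308 CPM (0.760, 0.691 to 0.834). Of the 13 mitochondrially encoded genes, which summed to 74958 and 65189 CPM, 1 was past 2-fold higher, mt-Nd4l (911 and 430 CPM).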

How the data were processed

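tdTomato-positive spinal cord cells were profiled with 10x 3′ v3.1 chemistry, 1 gene expression library per condition. The authors deposited raw UMI counts per cell and gene, not normalised. The submitters' processing notes name Cell Ranger 8.0.1 and the mm10 build, while the file headers name an earlier version. Of 919 injured and 4159 uninjured barcodes, 40 injured ones fell outside the limits of 500 to 50000 gene UMIs. After log transformation at 10000 UMIs per cell, 2000 variable genes, 15 components, 15 neighbours and Leiden resolution 0.5 gave 14 clusters (scanpy 1.11.5, igraph 0.11.9), with members, other metabolic genes, mitochondrial genes and reporters left out. A cluster was named by its highest mean marker score (above 0.2), with at least 3 markers in 10% of its cells and no other class having more markers among its 10 leading genes. The 2 clusters left unnamed held 54 injured and 311 uninjured cells. Scrublet marked 2 cells as doublets and was not used as a filter.

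UMIs were summed per class and condition and given as CPM. Log2 ratios and 2-fold calls added 1 CPM to both sides, over genes with a mean of 10 CPM or more, and printed ratios have none added. Intervals are exact 95% Poisson, Clopper-Pearson or conditional binomial intervals of counts. With 1 library per condition there were no tests between conditions. Gene positions came from GENCODE M21 by identifier, and promoters from RefSeq. The code for ratios and intervals was checked on simulated counts with known folds. All members were named, and of the other lists up to 4 genes past 2-fold in each direction, with Hif1a and Eno1b added after their values were seen. Members and lists were chosen with earlier results of these data known.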

Additional observations from a re-analysis of the deposited data

Results flagged for a closer look

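In 3 classes the summed members differed from the astrocyte-like cells in direction, with counting intervals on opposite sides of 1. The injured over uninjured ratio was 2.36 in microglia-like, 1.25 in OPC-like and 1.22 in fibroblast-like cells, against 0.904 in astrocyte-like cells. Without Aldoc the astrocyte-like ratio was 1.03, so the opposition rests on that gene on the astrocyte-like side. Without Gapdh the fibroblast-like ratio was 1.05 (0.970 to 1.14), so there it also rests on Gapdh. The ratios without Gapdh were 1.99 in microglia-like, 1.22 in OPC-like and 0.888 in astrocyte-like cells. Single members were compared only where every group had more than 3 UMIs. Pdk1 fell out by that floor in microglia-like cells, where the 4 pyruvate gate genes had 1 uninjured UMI in all. Of the members compared, Eno1 alone was past 2-fold in a class and had intervals on opposite sides. Its ratio was 3.99 in microglia-like and 3.91 in fibroblast-like cells, against 0.772 in astrocyte-like cells. The uninjured counts behind these were 5 and 7 UMIs, and in the injured cells of astrocyte-like cluster 3 Eno1 was also above its uninjured level. With 1 library per condition, none of these differences between classes was tested.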

How the results depend on the processing

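The summed astrocyte-like ratio of 0.904 was below 1 under all alternatives except 2. It was 0.972 with no filter on cells, 0.890 at Leiden resolution 1.0, 0.960 with all genes allowed in clustering, 0.811 in cells with an Aldh1l1 UMI, 0.843 with unnamed clusters counted, 0.871 in male-scored cells and 0.959 as a mean over cells. Alternatives chosen after seeing the data gave 0.848 without cluster 5, 0.804 with cluster 4 as the injured cells, 1.31 with cluster 3 and 1.03 with Aldoc left out, the last 2 being reversed. The count of 1 member past 2-fold higher became 2 with no filter on low values, no filter on cells, Aldh1l1 cells or the 5% highest Scrublet scores removed. It became 3 with all genes in clustering, male-scored cells or cluster 4, and 7 with cluster 3. The count of 0 lower became 1 with Aldh1l1 cells, unnamed clusters or male-scored cells, 2 as a mean over cells and 5 with cluster 3. The median of -0.09 became -0.33 with Aldh1l1 cells and 0.25 with cluster 3. The ratio of 1.74 to microglia-like cells became 1.60 with Aldh1l1 cells, 1.68 with unnamed clusters, 2.05 in male-scored cells, 1.49 with median-of-ratios scaling, 1.87 as a mean over cells, 1.83 with Scrublet removal, 1.84 without mitochondrially encoded genes, 2.52 with cluster 3, 1.54 with cluster 4 and 1.37 without Aldoc. The share of Slc2a1 in its family turned from lower to 1.97 percentage points higher with cluster 3. The cause of these moves was not tested, except that Aldoc or cells were left out by construction. Among the 24 members with an interval off 1, the sign changed for Pfkp and Pfkfb2 in male-scored cells, Eno1 and Ldhb with cluster 3, and Tpi1 and Pkm with cluster 4. The count of 7 isoenzyme families stayed within 1.5 times under every alternative. No paired analysis was possible because there was a single library on each side, which also left no replicate to leave out. Protein identity between isoenzymes was not run. Depth limits Hk2, Slc2a3, Slc16a3 and the uninjured values of the smaller classes.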
